A study of Saccharomyces cerevisiae with 2 samples.

Results

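The 10 genes described here encode the yeast Hsp90 chaperone and 8 of its cochaperones. They were taken from the deposited table by name, with no value in the rule, and are HSP82, HSC82, STI1, AHA1, CDC37, SBA1, CPR6, CPR7, HCH1 and SGT1. All 10 were found among the 6448 rows, all are classed as protein-coding, and all passed a minimum of 100 counts over both libraries. Transcription was measured in Saccharomyces cerevisiae by BioGRO-seq, which is a genomic run-on method in which RNA polymerases already engaged on genes extend their transcripts with biotin-labelled UTP. The xrn1 deletion strain came from the Euroscarf collection and lacks the cytoplasmic 5′ to 3′ mRNA exonuclease Xrn1, and the wild type was BY4741, a common haploid laboratory strain; each gave 1 library. Both cultures were grown to an optical density (OD600) of 0.55 and received the same permeabilisation with sarkosyl, RNase A treatment and run-on of 5 min at 30 °C. The labels name no further allele of the deletion strain, and its parent strain is not stated in them. Since neither strain was replicated, no test is given, and a difference between the strains cannot be told apart from a difference between these cultures or libraries.

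Hsp90 is an ATP-driven dimer that completes the folding and activation of a limited set of client proteins, among them many kinases, transcription factors and assembly intermediates. Clients are first bound by Hsp70 and its J-protein partners and are then passed to Hsp90 through adaptor cochaperones. Other cochaperones speed up the ATPase cycle, hold the closed state or act as peptidyl-prolyl isomerases. In yeast, HSC82 is known as the more constitutive and HSP82 as the more heat-inducible Hsp90 gene, and many genes of the system are targets of the heat shock factor Hsf1.

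The libraries held 46396400 counts for the xrn1 deletion strain and 64934493 for the wild type. XRN1 itself had 53 counts in the deletion strain and 41954 in the wild type, as the labels require. Ratios are the deletion strain's count over that of the wild type, divided by the same quotient of the median protein-coding gene (0.701). A shift shared by the whole genome is therefore invisible. Intervals are 95% exact intervals of a pair of counts and cover counting error only.

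The upstream sequences of the Hsp90 pair are shown because, of the 3 related pairs among the 10 genes, this one had the largest gap between its ratios and the most similar coding sequences. The 300 bases before each start codon are given 5′ to 3′ on the gene's own strand, from the RefSeq R64 genome. Capitals mark GAANNTTC or TTCNNGAA, each of which is its own reverse complement. They are pairs of the inverted repeat units that Hsf1 is known to bind. HSP82 lies on the minus strand and the stretch is chrXVI:98626-98925, and HSC82 lies on the plus strand and the stretch is chrXIII:632055-632354.
HSP82: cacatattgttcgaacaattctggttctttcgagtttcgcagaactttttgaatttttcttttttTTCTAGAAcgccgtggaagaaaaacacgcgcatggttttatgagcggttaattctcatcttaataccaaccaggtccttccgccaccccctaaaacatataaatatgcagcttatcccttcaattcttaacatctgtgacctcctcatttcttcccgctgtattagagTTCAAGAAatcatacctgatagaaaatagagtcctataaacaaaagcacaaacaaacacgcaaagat
HSC82: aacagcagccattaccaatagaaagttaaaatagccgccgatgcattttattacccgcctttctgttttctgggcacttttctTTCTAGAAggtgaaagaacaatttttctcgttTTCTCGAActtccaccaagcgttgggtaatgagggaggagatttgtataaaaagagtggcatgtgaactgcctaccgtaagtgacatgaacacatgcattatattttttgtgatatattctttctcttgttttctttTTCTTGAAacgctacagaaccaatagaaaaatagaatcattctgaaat
The HSP82 stretch held 2 such matches, beginning 235 and 67 bases before the start codon. The HSC82 stretch held 3, beginning 217, 185 and 48 bases before it.

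In the 400 bases before the start codon, 7 of the 10 genes held GAANNTTC or TTCNNGAA, against 29.4% of the 5177 protein-coding genes with an annotated start and at least 100 counts. CDC37, CPR7 and SGT1 held none. These 3 genes also had the lowest run-on levels of the 10, and whether the pattern goes with level was not tested. Over all genes, the median log2 ratio between the strains was −0.014 with the pattern and 0.005 without it. The run of 3 units, GAANNTTCNNGAA or its reverse complement TTCNNGAANNTTC, was present before STI1 and AHA1 and before 1.26% of all genes. Its matches include matches of the shorter pattern. Where the upstream neighbour is nearer than 400 bases, the window reaches into that gene, as for HCH1 (gap of 192 bases) and STI1 (246). The matches found before the 10 genes all begin within the gap to the upstream protein-coding neighbour, that of HCH1 at 166 bases. The STI1 stretch begins 257 bases before the start codon, inside BUB3, and its matches begin 242 and 216 bases before it. The stretches that hold it are given with the longer pattern in capitals, at chrXV:380796-380864 on the plus strand for STI1 and chrIV:892559-892601 on the plus strand for AHA1.
STI1: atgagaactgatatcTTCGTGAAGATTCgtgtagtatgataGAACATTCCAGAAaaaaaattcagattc
AHA1: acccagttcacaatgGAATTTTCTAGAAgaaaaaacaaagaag
The exact letters TTCTAGAA, singled out after the matches were seen, stood before HSP82, HSC82, AHA1, CPR6 and HCH1, which are 5 of the 10, and before 1.60% of all genes. AGGGG or its reverse complement CCCCT, the core of the stress response element bound by Msn2 and Msn4, stood before HSP82 and SBA1 and before 28.9% of all genes. With it the median log2 ratio over all genes was 0.136 and without it −0.039, the widest such gap of the patterns searched. For the run of 3 units these medians were 0.071 and −0.0002, and for TTCTAGAA 0.066 and −0.002. Whether any pattern goes with the ratio was not tested. A match is a description of letters and does not show binding.

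None of the 10 genes differed by as much as 2-fold between the strains. Over all 5198 protein-coding genes with at least 100 counts, 4.06% were at least 2-fold higher in the deletion strain and 1.52% at least 2-fold lower, each with an interval that excluded 1. SBA1 had the highest ratio of the 10, 1.35 (1.32 to 1.39), and HSC82 the lowest, 0.695 (0.688 to 0.701). The median log2 ratio of the 10 was −0.04, with quartiles of −0.16 and 0.19, while the quartiles over all genes were −0.22 and 0.26. The median's sign was not stable, as it was 0.10 once loess trends on count and GC content had been removed. The ratios of 77.8% of all genes lay within the range spanned by the 10.

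At a smaller threshold, at least 25% higher or at least 20% lower with an interval that excluded 1, SBA1 and AHA1 were higher and HSC82 was lower. Over all genes, 20.4% were higher and 16.0% lower by that measure, so 2 of 10 higher is near the background and 1 of 10 lower is not above it. AHA1 lay just past this threshold, at 25.2% above the median gene, and 5 of the 9 alternative settings took it below.

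**Figure D1:**
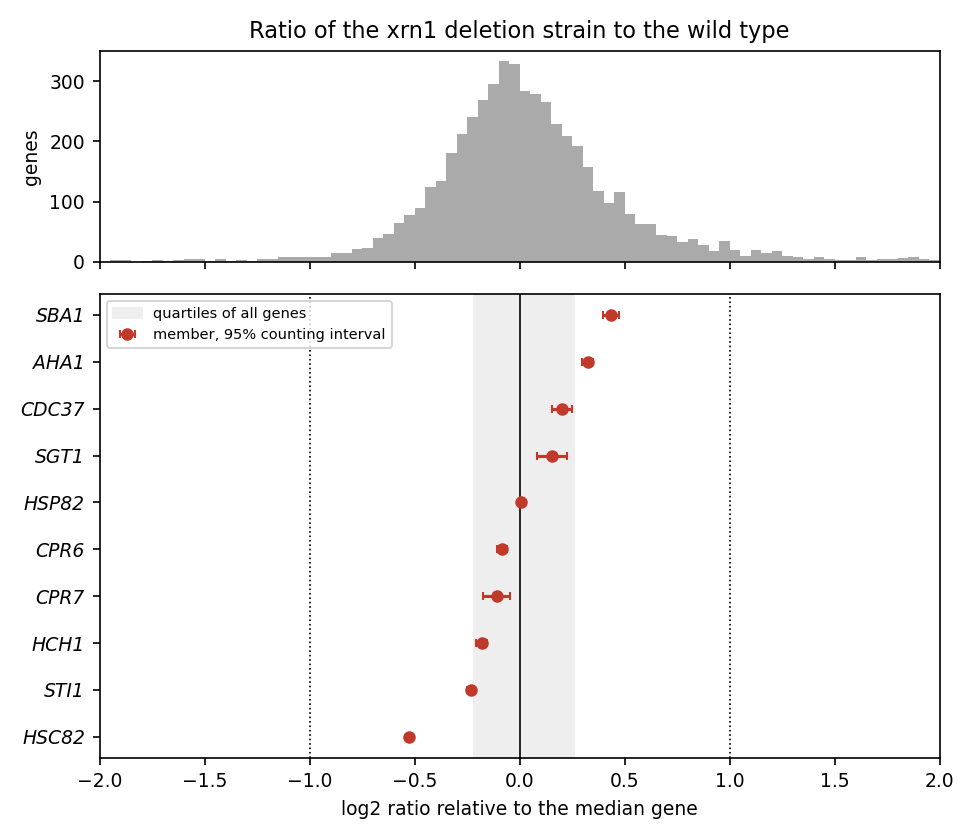
Upper panel, histogram of the log2 ratio (xrn1 deletion over wild type, relative to the median gene) of protein-coding genes with at least 100 counts, on the axis between −2 and 2. Lower panel, the 10 genes with 95% counting intervals, the quartiles of all genes shaded and 2-fold marked by dotted lines. HSC82 stands lowest at −0.53, SBA1 highest at 0.43, and all 10 lie inside the dotted lines.

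The Hsp90 genes themselves were among the strongly transcribed genes of both strains. HSP82 (YPL240C, chromosome XVI, 96496 to 98625, minus strand, 1 exon) had 101093 counts in the deletion strain and 143487 in the wild type. Its run-on level, in CPM per kb (counts per 1000000 protein-coding counts of the library, per kb of coding length), was 1065 in the deletion strain (1059 to 1072) and 1076 in the wild type (1071 to 1082). That level ranked 130 and 146 among the 5177 genes in the deletion strain and the wild type. Its ratio was 1.00 (0.996 to 1.01), so HSP82 stood at the median gene, and the 4 other scalings put it just below, at log2 ratios from −0.02 to −0.01.

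HSC82 (YMR186W, chromosome XIII, 632355 to 634472, plus strand, 1 exon) had 58871 counts in the deletion strain and 120847 in the wild type. Its level was 624 CPM per kb in the deletion strain and 912 in the wild type. The gene was 1.44-fold lower in the deletion strain (1.43 to 1.45), a log2 ratio of −0.53 at percentile 6.81 of all genes. With the loess trends removed, its log2 ratio was −0.37 and that of HSP82 was 0.16, so HSC82 remained below HSP82.

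The balance within the pair does not depend on how the libraries are scaled. HSC82 had 0.586 times the counts per kb of HSP82 in the deletion strain (0.580 to 0.592) and 0.847 times in the wild type (0.841 to 0.854). HSC82 took 36.8% of the pair's counts in the deletion strain, against 45.7% in the wild type. The pair ratio of the deletion strain was 0.691 times that of the wild type (0.683 to 0.700). Taken as a sum, the pair had 159964 counts in the deletion strain and 264334 in the wild type, a ratio of 0.863 (0.857 to 0.868). It made up 0.359% of all protein-coding counts in the deletion strain and 0.422% in the wild type.

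The coding sequences of the pair limit how well reads can be assigned. They were identical at 1955 of 2115 aligned bases (92.4%). Of the 30-base windows of HSP82, 16.2% occur elsewhere in the genome, and of those of HSC82 16.3%. For 50-base windows the shares were 6.39% and 6.43%. The other 8 genes had 0 repeated windows at either length. The longest stretch common to both genes is shown because a read from inside it could come from either. It covers 113 bases, chrXVI:96761-96873 on the minus strand for HSP82 and chrXIII:634095-634207 on the plus strand for HSC82.
HSP82 and HSC82: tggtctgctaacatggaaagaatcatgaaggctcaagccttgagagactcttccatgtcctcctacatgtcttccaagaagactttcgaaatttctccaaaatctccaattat
The last 60 bases of the coding sequences are shown as a stretch that tells the genes apart, with the 7 differing bases in capitals. They end in the stop codon and include the codons of the C-terminal motif that tetratricopeptide cochaperones bind. They lie at chrXVI:96496-96555 on the minus strand and chrXIII:634413-634472 on the plus strand.
HSP82: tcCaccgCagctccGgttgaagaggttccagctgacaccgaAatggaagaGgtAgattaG
HSC82: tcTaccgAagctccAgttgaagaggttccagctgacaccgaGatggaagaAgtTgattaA
The treatment of reads with several matches during counting is not stated, so the counts of these 2 genes are less certain than those of the other 8.

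**Figure D2:**
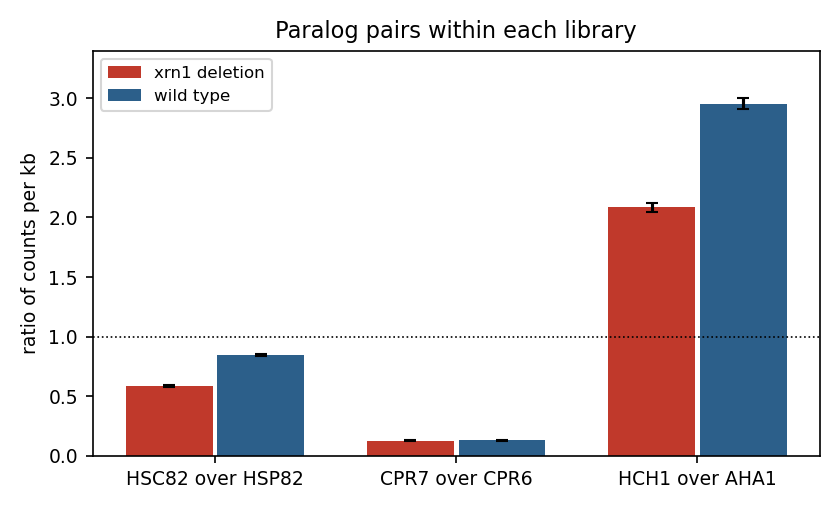
Ratio of counts per kb within each library for the 3 related pairs, xrn1 deletion in red and wild type in blue, with 95% counting intervals as error bars and a dotted line at 1. HSC82 over HSP82 is 0.586 in the deletion strain and 0.847 in the wild type, HCH1 over AHA1 is 2.08 and 2.96, and CPR7 over CPR6 is 0.127 and 0.129.

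Of the adaptors that bring clients to Hsp90, STI1 had a lower ratio and CDC37 and SGT1 higher ones. STI1 (YOR027W, chromosome XV, 381053 to 382822) encodes the Hop homologue that binds Hsp70 and Hsp90 at once. It had 37249 counts in the deletion strain and 62395 in the wild type, a level of 472 CPM per kb in the deletion strain and 563 in the wild type. Its ratio was 0.851 (0.840 to 0.862), a log2 ratio of −0.23, just below the lower quartile of all genes.

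CDC37 (YDR168W, chromosome IV, 790328 to 791848), the adaptor for protein kinases, had 6489 counts in the deletion strain and 8056 in the wild type. Its level was 95.8 CPM per kb in the deletion strain and 84.6 in the wild type, and its ratio was 1.15 (1.11 to 1.19). SGT1 (YOR057W, chromosome XV, 432186 to 433373) links Hsp90 to Skp1 and to kinetochore assembly. It had the fewest counts of the 10, 2772 in the deletion strain and 3553 in the wild type, and a ratio of 1.11 (1.06 to 1.17). Both genes lay between the quartiles of all genes, so their distance from the median gene is common in these libraries.

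Of the cochaperones that act on the ATPase cycle, AHA1 and SBA1 had ratios above 1 and HCH1 had one below. With the loess trends removed, CDC37 at a log2 ratio of 0.32 stood above AHA1 at 0.25. AHA1 (YDR214W, chromosome IV, 892875 to 893927), the main activator of the Hsp90 ATPase, had 21801 counts in the deletion strain and 24828 in the wild type. Its level was 465 CPM per kb in the deletion strain and 377 in the wild type, and its log2 ratio was 0.32. SBA1 (YKL117W, chromosome XI, 220324 to 220974), the p23 homologue that binds the closed, ATP-bound dimer, had 10971 counts in the deletion strain and 11579 in the wild type. Its level was 378 CPM per kb in the deletion strain and 284 in the wild type. SBA1 lay at percentile 84.6 of all genes and AHA1 at percentile 79.6.

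HCH1 (YNL281W, chromosome XIV, 108467 to 108928), a short relative of the N-terminal part of Aha1, had 19937 counts in the deletion strain and 32204 in the wild type. Its ratio was 0.883 (0.867 to 0.898), below the median gene while that of AHA1 was above it. Per kb, HCH1 had 2.08 times the counts of AHA1 in the deletion strain (2.04 to 2.12) and 2.96 times in the wild type (2.91 to 3.01). The pair ratio of the deletion strain was 0.705 times that of the wild type (0.687 to 0.723). In raw counts, not divided by length, HCH1 stood at 0.914 times AHA1 in the deletion strain and at 1.30 times in the wild type. The coding sequences of AHA1 and HCH1 shared 0 windows of 30 bases, so an exact match of that length cannot come from both. Shorter reads and reads with mismatches were not checked.

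The cyclophilins CPR6 and CPR7, peptidyl-prolyl isomerases that dock on the C-terminal end of Hsp90, had almost the same ratio at very different levels. CPR6 (YLR216C, chromosome XII, 572096 to 573211, minus strand) had 23149 counts in the deletion strain and 34951 in the wild type, with a ratio of 0.944 (0.929 to 0.960). CPR7 (YJR032W, chromosome X, 491081 to 492262) had 3114 counts in the deletion strain and 4788 in the wild type, with a ratio of 0.927 (0.886 to 0.970). Per kb, CPR6 had 7.87 times the counts of CPR7 in the deletion strain and 7.73 times in the wild type. The CPR7 over CPR6 ratio in the deletion strain was 0.982 times that in the wild type (0.936 to 1.03), an interval that includes 1. CPR6 lay above the median gene, at a log2 ratio of 0.03, after removal of the trends.

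By level, the 10 genes formed 2 sets, 7 well above the median gene and 3 near it. In the deletion strain the order was HSP82, HCH1, HSC82, STI1, CPR6, AHA1, SBA1, CDC37, CPR7 and SGT1. In the wild type it was the same except that HCH1 (1114 CPM per kb, 1102 to 1126) stood above HSP82. In the deletion strain the intervals of STI1 (468 to 477), CPR6 (460 to 472) and AHA1 (459 to 471) overlapped, so they cannot be ordered there beyond counting error. In the wild type they were apart, with 563 for STI1, 500 for CPR6 and 377 for AHA1. The median gene had 73.5 CPM per kb in the deletion strain and 71.4 in the wild type. HSP82 stood at 14.5 times that level in the deletion strain and 15.1 times in the wild type, and SGT1 at 0.712 and 0.669 times. The label was biotin-UTP, and T made up between 22.8% (STI1) and 28.9% (CPR7) of the coding strands, so levels of different genes are compared only roughly. In the RefSeq annotation all 10 genes have a single exon, and none overlaps another gene. The annotation used for counting was not given, so overlap with its other rows was not checked.

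**Figure D3:**
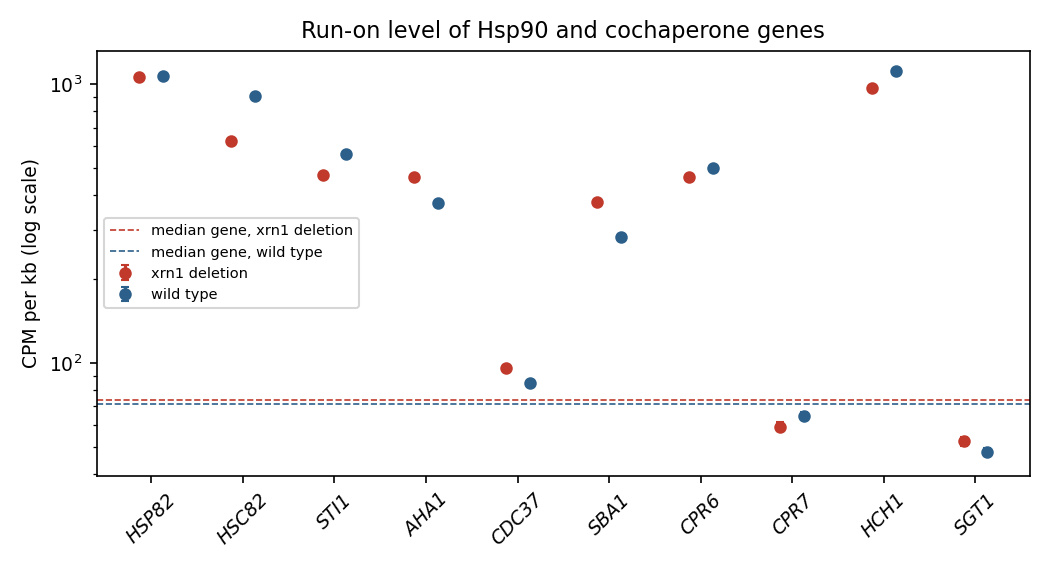
Run-on level of each gene in CPM per kb (log axis), xrn1 deletion in red left of wild type in blue, with 95% counting intervals mostly smaller than the points. Dashed lines mark the median gene in each library. 7 genes stand at 284 or more in both libraries, and CDC37, CPR7 and SGT1 lie between 47.8 and 95.8.

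Summed over the 8 cochaperones there were 125482 counts in the deletion strain and 182354 in the wild type, a ratio of 0.981 (0.974 to 0.988). This gave 0.784 cochaperone counts per Hsp90 count in the deletion strain and 0.690 in the wild type, with counts not divided by length. STI1, CPR6, AHA1 and HCH1 carry most of the cochaperone sum. Within the Hsp90 sum, HSP82 had a ratio of 1.00 and HSC82 one of 0.695. The counts of these Hsp90 genes are the less certain ones, as given above.

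The genes on either side of each member were examined for their own ratios. Of the 20 annotated neighbours, separated from the members by 115 to 1106 bases, 19 had at least 100 counts and 0 of these differed by 2-fold. Among the 9 members with both neighbours measured, 4 had a higher ratio than both, 2 a lower ratio than both, and 3 lay between. The same split was not counted over all genes, so it is not read as a trait of the members. The counting intervals of CDC37 overlapped those of both its neighbours, that of CPR6 overlapped CDC123 and that of CPR7 overlapped RAV1, so these positions are not set beyond counting error. HSC82 was lower than both its neighbours, RTP1 on the upstream side at a log2 ratio of −0.20 and YMR187C on the downstream side at −0.34. HSP82 was higher than both of its own, YAR1 upstream at −0.29 and CIN2 downstream at −0.14. SBA1 stood above VPH2 at −0.05 and PRR1 at −0.05. AHA1, by contrast, lay below its upstream neighbour UPC2, a gene for a sterol regulatory transcription factor, which was at 0.57. On its other side the putative frame YDR215C had 35 counts in the deletion strain and 4 in the wild type, too few for a comparison. STI1 lay between BUB3, a spindle checkpoint gene, at −0.45 and CIN5 at 0.35. CPR6 at −0.08 lay between COA4 at 0.66 and CDC123 at −0.15, and CDC37 at 0.20 lay between TAF10 at 0.15 and STB3 at 0.25. CPR7 at −0.11 stood above GEA1 at −0.27 and just above RAV1 at −0.13, and SGT1 at 0.15 stood above NOB1 at −0.21 and ASE1 at −0.08. HCH1 at −0.18 was below POP3 at 0.13 and ERG24 at −0.09. No label says whether counting used strand, so reads from the opposite strand of a gene cannot be told apart from its own.

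**Figure D4:**
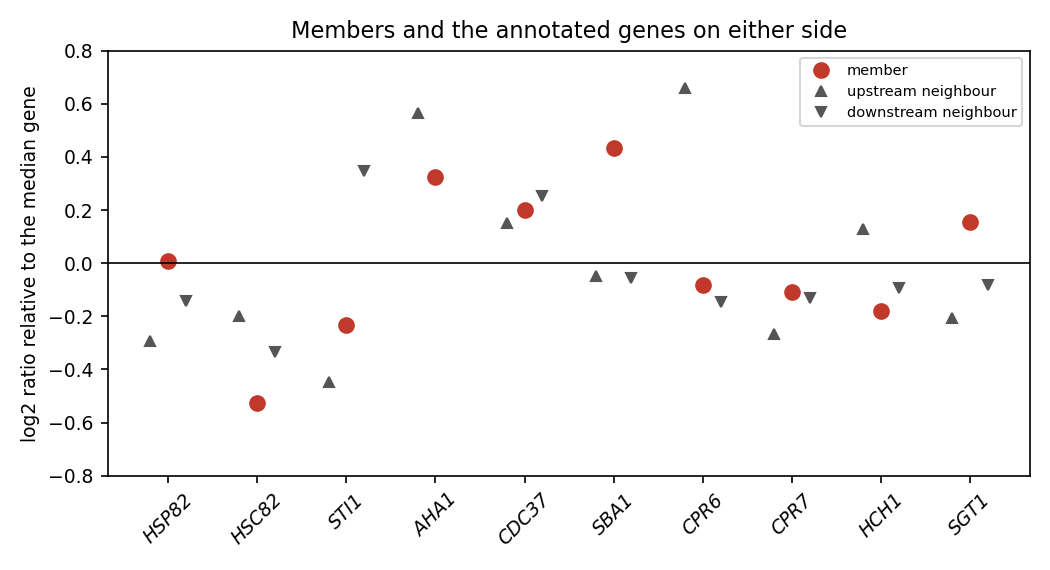
Log2 ratio (xrn1 deletion over wild type, relative to the median gene) of each member as a red circle, with its upstream neighbour as an upward and its downstream neighbour as a downward grey triangle, where at least 100 counts were present. HSC82 at −0.53 is below both neighbours, while SBA1 at 0.43 is above both.

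In 3 of the 4 related lists the log2 ratios spanned more than among the 10 genes, and the list of other cochaperones spanned slightly less. This span rests on the lowest and highest gene of each list, and the lists differ in size. The quartiles were −0.16 and 0.19 for the 10 genes and −0.19 and 0.23 for the other cochaperones. They were −0.14 and 0.34 for the Hsp70 machinery, −0.09 and 0.32 for the Hsf1 targets, and −0.19 and 0.23 for the clients and Sgt1 partners. The other Hsp90 cochaperones were listed with the R2TP assembly complex, in which Pih1 and Tah1 join the Rvb1 and Rvb2 ATPases. The median log2 ratio of this list was 0.02 over 6 genes, and ran from −0.08 to 0.03 across the main and alternative settings. Of the 6 genes, 3 lay above and 3 below the median gene. None was past 2-fold, beside 4.06% higher and 1.52% lower over all genes. PPT1, the protein phosphatase that acts on Hsp90, was 1.54-fold lower in the deletion strain (1.47 to 1.62), with 2630 counts there and 5783 in the wild type. PIH1 had the highest ratio of this list, 1.21 (1.14 to 1.29). The most counted genes, RVB1 and RVB2, were at log2 ratios of −0.11 and 0.16.

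The Hsp70 machinery that passes clients to Hsp90 had a median of 0.13 over 10 genes. Of these, 1 was at least 2-fold higher, beside 4.06% over all genes, and 0 lower. That gene was SSE2, a stress-induced nucleotide exchange factor for Hsp70, with 17545 counts in the deletion strain and 8956 in the wild type and a ratio of 2.79 (2.72 to 2.87). Its constitutive relative SSE1, with 98461 counts in the deletion strain and 136765 in the wild type, was at a log2 ratio of 0.04. FES1, another exchange factor gene, was lowest at −0.36, and SSA2, the most counted, was at −0.27. SSA1 was at 0.32. Reads of the near-identical SSA1 and SSA2 may be shared, so these values are uncertain.

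Targets of Hsf1 outside the 10 genes had a median of 0.07 over 18 genes, with 10 above and 8 below the median gene. Of them, 2 were at least 2-fold higher, beside the 4.06% over all genes, and 0 lower. Under the 4 other scalings the number was 1, since HSP78, at a log2 ratio of 1.01, lay at 0.98 to 1.00 there. HSP104, the cytosolic disaggregase gene, had a ratio of 2.82 (2.80 to 2.83) and HSP78, its mitochondrial relative, 2.01 (1.98 to 2.05). SSA2 was the second most counted gene here after HSP104. CUR1, a protein sorting factor gene, was lowest at −0.43. HSF1, the gene of the factor itself, is counted among the 18 and was at −0.01. This list and the Hsp70 list share 7 genes.

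Clients of Hsp90 and partners of Sgt1 had a median of −0.11 over 9 genes, with 4 above and 5 below the median gene. That median ran from −0.13 to 0.01 across the main and alternative settings. Of the 9 genes, 1 was at least 2-fold higher, beside 4.06% over all genes, and 0 lower. That gene was SLT2, the MAP kinase of the cell wall integrity pathway, whose activity depends on Hsp90. It had 28258 counts in the deletion strain and 14462 in the wild type, a ratio of 2.79 (2.73 to 2.84). SKP1, the partner of Sgt1, was next at 1.60 (1.55 to 1.66). CTF13, a kinetochore subunit gene whose product is assembled with the help of Sgt1 and Skp1, was lowest at 0.709 (0.666 to 0.755). HAP1, a haem-responsive transcription factor gene with the most counts of the list, was at a log2 ratio of −0.19, and CYR1, the adenylate cyclase gene, at −0.24.

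**Figure D5:**
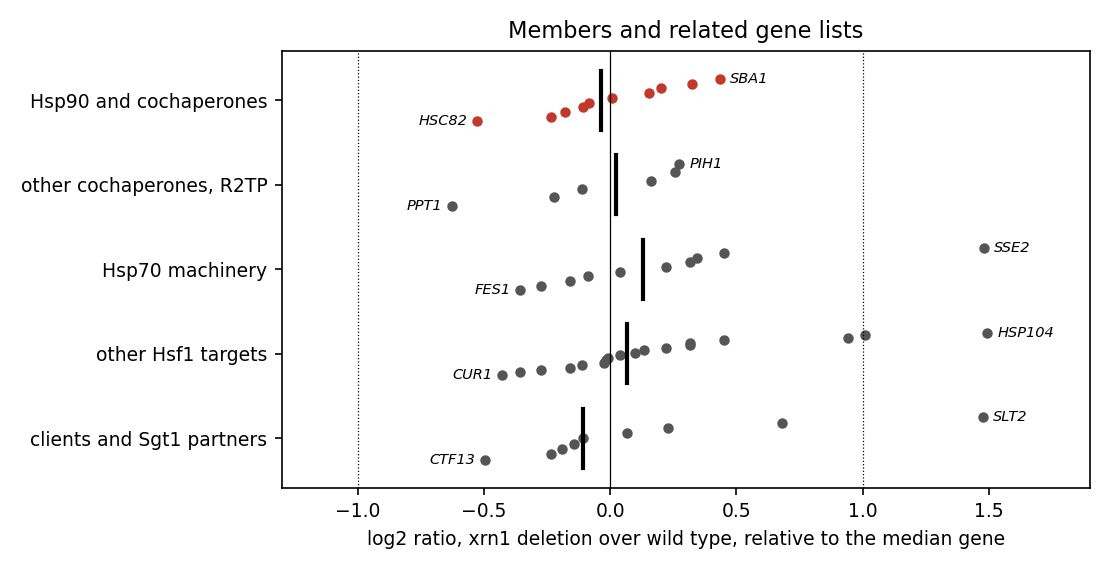
Log2 ratio (xrn1 deletion over wild type, relative to the median gene) of each gene in the 10-gene set in red and in 4 related lists in grey, with black bars at the medians, dotted lines at 2-fold and the lowest and highest gene of each list named. The 10 genes lie between −0.53 and 0.43, while SSE2, HSP104 and SLT2 lie between 1.48 and 1.49.

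The genes most like the Hsp90 pair in both libraries were sought by distance on the log2 scale of level, over 2 libraries. Nearest to HSP82 were RPL14A (distance 0.022), RPL36A (0.025) and EXG1 (0.026). Nearest to HSC82 were PFK2 (0.053), RPL23A (0.068) and HXK2 (0.13). With 1 library per strain, this likeness describes a level and a ratio and nothing more.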

How the data were processed

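BioGRO-seq libraries of an xrn1 deletion strain and a wild type, 1 each, were compared. The deposited table holds the authors' raw read counts by open reading frame. Per the submitters' processing notes, the tools were FastQC, Trimmomatic, TopHat2 (2.1.1), Subread and featureCounts, and the builds R64 and sacCer3. The strand setting, the annotation and the treatment of reads with several matches were not given in the sources used.

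Counts were used as deposited, with totals of 46396400 in the deletion strain and 64934493 in the wild type. Positions, coding lengths and sequences came from the RefSeq R64 genome, in which all 10 genes matched by locus tag and chromosome. Ratios were divided by that of the median of 5198 protein-coding genes with at least 100 counts over both libraries (raw ratio 0.701). Intervals of ratios are 95% exact conditional (Clopper-Pearson), those of levels exact Poisson, and that of a change in a pair ratio a normal approximation on the log scale. All describe counting error alone, and no molecular identifiers are mentioned in the labels. A gene was called past a threshold (2-fold, or 25% higher or 20% lower) when its interval also excluded 1. The procedure was tested on simulated counts with counting error only, which cannot show how it fares with differences between cultures or libraries.

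All 10 genes are named. From each related list the 2 genes with the most counts and those with the highest and lowest ratio are named, with the gene on either side of each member and the 3 genes nearest in level to HSP82 and to HSC82. SSA1, HSF1, HSP78 and SKP1 were named besides, after their values were seen. The 10 genes and the lists were chosen with earlier results of these data known.

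As alternatives, ratios were scaled by the totals of protein-coding or of all rows, by TMM factors (edgeR 4.0.16) or by size factors (DESeq2 1.42.0). The minimum was dropped or set to 500, or 5 was added to every count. Rows overlapping another RefSeq gene were omitted, or loess trends on count and GC content (span 0.3) were taken out. The software was R 4.3.3 and Python 3.11.15 with statsmodels 0.14.6, scipy 1.17.1, pandas 2.3.3 and numpy 2.4.6.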

Additional observations from a re-analysis of the deposited data

How the results depend on the processing

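No paired analysis was possible because there was a single library of either strain, which also means that none could be omitted. None of the 10 genes passed 2-fold in either direction under any of the 9 alternatives. At the smaller threshold SBA1 (25% higher) and HSC82 (20% lower) were called under all 9, whereas the number of members at least 25% higher was 1 in place of 2 with the total count of all rows, the total count of protein-coding rows, the TMM factors, the size factors and the loess trends removed, each of which put AHA1 below that threshold. The other scalings shifted log2 ratios by no more than −0.03, which put HSP82 between −0.02 and −0.01. Removing the trends moved single members by up to 0.16, and with it CPR6 changed sign. The median of the 10 genes ranged between −0.06 and 0.10. That of the other cochaperones ranged between −0.08 and 0.03, and that of the clients and Sgt1 partners between −0.13 and 0.01. With counts not divided by length, HCH1 over AHA1 was 0.914 in the deletion strain and 1.30 in the wild type, and CPR7 over CPR6 was 0.135 in the deletion strain and 0.137 in the wild type. Differences between cultures were not measured. Counting error limits the order of STI1, CPR6 and AHA1 in the deletion strain, the change of CPR7 over CPR6, and the place of CDC37, CPR6 and CPR7 beside a neighbour.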
